A study of Chlamydomonas reinhardtii with 8 samples.

Results

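FAP genes of the unicellular green alga Chlamydomonas reinhardtii encode flagellar associated proteins, a numbered family named for finding the protein in isolated flagella. The members were the genes whose symbol in the deposited table begins with FAP and a digit. There were 208 of them among 17737 genes, and 193 had a mean level of at least 1 FPKM over the 8 conditions. FPKM is the fragment count scaled by transcript length and by the mapped fragments of the library, so levels can be set side by side between genes. The other 15 members had means from 0.262 to 0.955 FPKM and enter no count below unless named.

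All conditions used strain CC-4532, grown in acetate medium in continuous light per the labels' protocols. Zinc-replete cultures were sampled early and late (labels' words). Zinc-deficient cells, taken through a second round of culture with no zinc supplied, are the 0 h condition. Zinc was then resupplied at 2.5 µM, and samples followed at 1.5, 3 and 4.5 h and then at 12 and 24 h. Which of both replete cultures is the match for the 0 h cells is not stated. No condition was handled alike without receiving zinc, so an effect of zinc and an effect of time in culture cannot be told apart. Although 4 biological replicates are named in the design, a gene has a single FPKM in each condition, with 2 bounds around it. Differences therefore carry no p-value and were not checked against replicates. The bounds stand in for the error. Among the 193 members their median half-width was between 14.9% of the level (12 h) and 30.5% (late replete). Total FPKM was lowest at 0 h (720944) and highest in early replete cells (886096). ZRT1, a zinc importer gene used as a check of the labels, stood at 313 FPKM at 0 h and at 0.383 and 0.325 FPKM in early and late replete cells.

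Flagella are whip-like organelles built on a ring of doublet microtubules around a central pair, and Chlamydomonas swims with them. Dynein motors on the doublets drive bending, radial spokes and the central apparatus regulate it, and proteins inside the doublet microtubules stabilise them. Intraflagellar transport carries the parts to the growing tip, and in this alga genes for flagellar proteins are well known to be expressed together when flagella are rebuilt. Many FAP proteins have since been placed in one of these structures, while others are known only from their presence in flagella.

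Most FAP transcripts dipped after zinc was returned and were high 12 h later. Of the 193 members past the filter, 133 had the lowest of their 8 values at 1.5 h, a share of 68.9% against 26.3% of the 11432 genes past the same filter with a valid estimate in every condition. The condition of the highest value was 12 h in 79 members (40.9%), early replete in 52 (26.9%) and late replete in 26 (13.5%). Over all genes these shares were 5.79%, 5.74% and 16.6%. At equal total FPKM in every condition, 115 members were lowest at 1.5 h (23.3% of all genes) and 121 highest at 12 h (9.48% of all genes). In 124 members (64.2%) the lowest value was at 1.5 h and the highest at 12 h or in a replete condition, against 14.1% of all genes. This unplanned combination joins the conditions where members were most often lowest and highest, so an excess over all genes was built in. No member had its lowest value at 3 or 12 h, against 3.01% and 6.34% of all genes. The median level of the 193 members was 9.69 FPKM in early replete cells, 8.16 in late replete cells, 6.76 at 0 h, 4.70 at 1.5 h, 6.66 at 3 h, 6.47 at 4.5 h, 9.41 at 12 h and 7.76 at 24 h. Over all genes past the filter the median level stayed between 5.27 and 5.74 FPKM. In bulk cultures a lower level per cell and fewer cells with the transcript cannot be told apart.

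**Figure D1:**
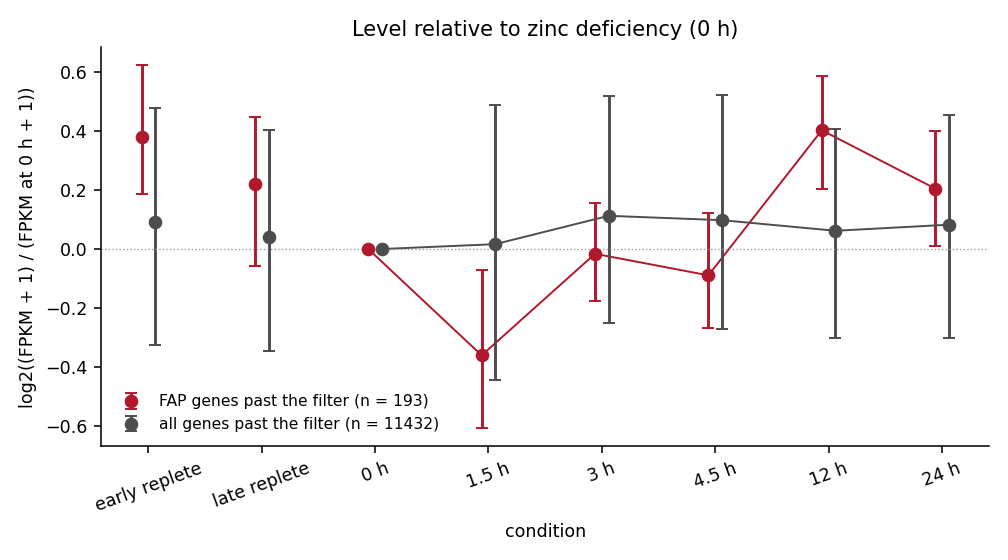
Level of each gene relative to 0 h on the log2(FPKM + 1) scale (vertical axis) in the 8 conditions (horizontal axis, not to time scale), as the median (point) and the range from the lower to the upper quartile (bar) over 193 FAP genes (red) and 11432 genes (grey). The FAP median lies at -0.36 at 1.5 h and at 0.40 at 12 h, while the median of all genes stays between 0.00 and 0.11.

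**Figure D2:**
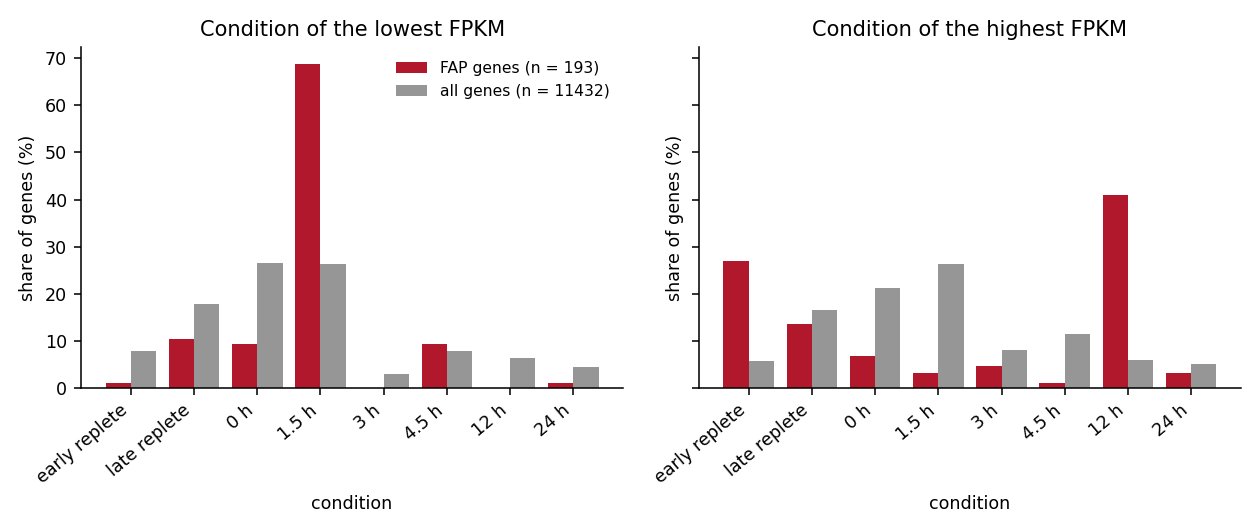
Share of genes in percent (vertical axis) whose lowest (left) or highest (right) FPKM fell in each condition (horizontal axis), for 193 FAP genes (red) and 11432 genes (grey). The lowest value was at 1.5 h in 68.9% of FAP genes and the highest at 12 h in 40.9%.

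Ratios below are log2((a + 1)/(b + 1)), with 1 FPKM added to each level, which understates the change of low genes. The words rose and fell are kept for genes with a ratio of at least 1 in size, a change of at least 2 on the linear scale, whose deposited bounds did not overlap. Values are said to lie apart where the second condition is met, whatever the size of the ratio. Counts by the bounds therefore include the genes that rose or fell. All resupply comparisons with 0 h share the 0 h value.

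In zinc deficiency FAP levels were mostly a little lower than in both replete cultures, and few members changed strongly. The median ratio at 0 h against the mean of both replete log2 levels was -0.32 over the members and -0.07 over all genes, and 160 of 193 members had a ratio below 0 (82.9% against 55.3% of all genes). Of the 193 members, 1 was higher and 4 were lower at 0 h against each replete culture, where the background was 5.58% higher and 5.76% lower of 11451 genes. By the bounds alone, 2 members (1.04%) lay apart above both replete cultures and 16 (8.29%) below, against backgrounds of 12.5% and 12.4%. At equal total FPKM the medians were -0.19 over the members and 0.05 over all genes, and 132 members had a ratio below 0. The shift was therefore small, its size and breadth depended on the scale, and strong calls were rarer than among all genes.

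The lower members differed in how they came back. FAP35 was at 165 and 188 FPKM in early and late replete cells and at 34.8 FPKM at 0 h (bounds 28.5 to 41.1). It fell to 15.3 FPKM at 1.5 h, stood at 35.2 and 42.2 FPKM at 3 and 4.5 h, and reached 129 FPKM at 12 h and 145 FPKM at 24 h. Its 24 h value overlapped both replete ranges (131 to 200 and 129 to 248 FPKM), and its range of 3.54 log2 units over the 8 conditions was the widest of the 193 members. FAP269 was at 79.6 and 57.8 FPKM in replete cells, 20.8 at 0 h, 30.6 at 1.5 h, 72.2 at 3 h, 106 at 4.5 h, 82.6 at 12 h and 90.1 at 24 h. It did not dip, and it had risen at 3 h (ratio 1.75) and was highest at 4.5 h (ratio 2.29). FAP40 also climbed from 0 h without a dip, but at a low level and until 12 h. It was at 4.95 and 6.48 FPKM in replete cells and at 0.446 at 0 h, then at 0.736, 2.00, 3.63, 5.59 and 4.74 FPKM at the 5 resupply times. FAP171, placed in the central apparatus list, was at 2.33 and 1.90 FPKM in replete cells and 0.408 at 0 h, and stood at 0.465, 0.941, 0.835, 1.75 and 1.60 FPKM at the same times. Its ratio of 0.97 at 12 h missed the fold minimum. FAP40 and FAP171 were no longer called at 0 h with 5 FPKM added in place of 1.

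FAP280 was the 1 member higher in deficiency, and it stayed high for the first hours of resupply. It stood at 349 FPKM at 0 h (bounds 270 to 427) against 127 and 91.8 FPKM in early and late replete cells. At the first 3 resupply times it was at 309, 339 and 292 FPKM, with bounds that overlapped those of 0 h. It had fallen to 138 FPKM at 12 h (ratio -1.34) and was at 133 FPKM at 24 h, inside the early replete bounds of 100 to 154 FPKM. FAP290, chosen after its values were seen, was the other member whose bounds lay apart above both replete cultures, at 11.6 FPKM against 7.63 and 4.94.

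**Figure D3:**
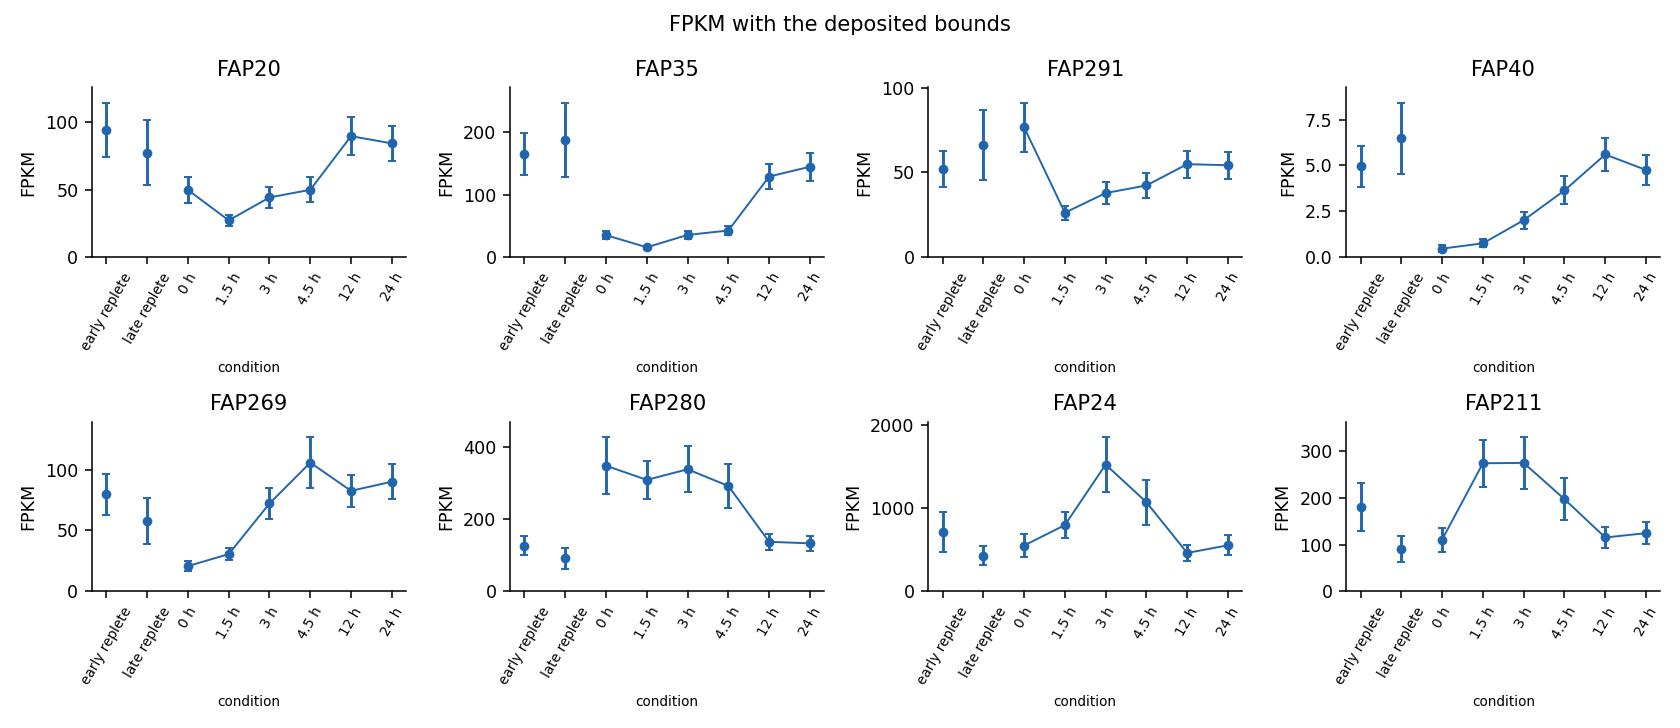
FPKM (vertical axis, from 0) of 8 FAP genes in the 8 conditions (horizontal axis, not to time scale), with bars for the deposited lower and upper bounds. FAP20, FAP35 and FAP291 are lowest at 1.5 h, FAP40 and FAP269 climb from 0 h, and FAP280 stays high until 4.5 h. FAP24 is highest at 3 h, and FAP211 is about equally high at 1.5 h and 3 h.

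At 1.5 h after zinc return FAP levels were lower than at 0 h in most members. The median ratio was -0.36 over the members, a level 22.1% lower on the (FPKM + 1) scale, while it was 0.02 over all genes. It was below 0 in 155 of 193 members (80.3%) and in 48.9% of all genes. Calls at the fold minimum were few, with 11 lower (5.70%) and 2 higher (1.04%) against a background of 9.24% lower and 12% higher. The number lower was 18 at equal total FPKM, 23 with 0.1 FPKM added in place of 1, and 2 with 5 FPKM added. On the bounds alone 78 members (40.4%) lay apart below their 0 h value and 7 (3.63%) above it, where the background was 24.4% and 27.2%.

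FAP291 fell most, from 76.5 FPKM at 0 h (bounds 62.0 to 91.1) to 26.1 FPKM at 1.5 h (bounds 22.0 to 30.1), a ratio of -1.52. In early and late replete cells it was at 52.1 and 66.1 FPKM, and its 0 h value was the highest of the 8. It was at 37.6, 42.2, 54.7 and 54.1 FPKM at 3, 4.5, 12 and 24 h. FAP191 had the same form, at 40.7 FPKM at 0 h, 16.3 at 1.5 h, and between 21.5 and 28.3 FPKM afterwards. FAP15 fell from 12.5 to 3.87 FPKM (ratio -1.47), stood at 7.64 and 7.65 FPKM at 3 and 4.5 h, and reached 19.6 FPKM at 12 h. FAP286 fell from 11 to 3.99 FPKM and FAP97 from 7.50 to 2.81 FPKM, and both were near their replete levels again at 12 h, at 11.9 against 11 and 11 FPKM and at 9.46 against 9.80 and 9.86 FPKM. FAP270 fell from 13.2 to 5.55 FPKM and stood above its 0 h value again at 3 h (13.8 FPKM) and 4.5 h (20.1 FPKM). The other called members were FAP35 and, from the list of proteins inside the doublet microtubules, FAP182 (6.91 to 2.73 FPKM) and FAP95 (13.4 to 6.03 FPKM), with FAP149 (7.05 to 2.83 FPKM) and FAP196 (1.98 to 0.487 FPKM) completing the 11.

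FAP224 and FAP211 rose at 1.5 h. FAP224 went from 77.2 FPKM at 0 h to 196 FPKM at 1.5 h and 228 FPKM at 3 h, and stood at 203, 131 and 141 FPKM at 4.5, 12 and 24 h. Its replete levels were 156 and 116 FPKM, so the early values exceeded both and the 24 h value lay between them. FAP211 went from 111 to 274 FPKM at 1.5 h and 275 FPKM at 3 h, then to 197, 115 and 125 FPKM. In early and late replete cells it was at 181 and 91.1 FPKM. FAP294, FAP204, FAP233, FAP269 and FAP79 also lay apart above 0 h, with FAP294 going from 69.4 to 126 FPKM.

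The dip was not seen in the most abundant members. None of the 10 members with a mean of at least 100 FPKM had its lowest value at 1.5 h, against 133 of the 183 members below that level, while among all genes of at least 100 FPKM the share was 28.2%. The 100 FPKM limit was chosen after the values were seen and falls just above FAP35, which had a mean of 94.4 FPKM and its lowest value at 1.5 h. In the range from 30 to 100 FPKM, 9 of 12 members were lowest at 1.5 h, and from 10 to 30 FPKM 39 of 47. FAP103, the most abundant member with a mean of 1674 FPKM, was at 1838 and 1384 FPKM in replete cells and at 1073, 1522, 2193, 2326, 1563 and 1496 FPKM from 0 to 24 h. FAP24 was at 709 and 428 FPKM in replete cells and at 550, 795, 1520.4, 1069, 461 and 553 FPKM over the same times. Both therefore had their highest values at 3 or 4.5 h, when most members were still below their replete levels. FAP102 ranged from 217 FPKM at 0 h to 344 FPKM at 24 h and FAP255 from 153 FPKM at 0 h to 242 FPKM in early replete cells. FAP204 was at 152 FPKM at 0 h, 247 FPKM at 1.5 h and 254 FPKM at 3 h. The summed FPKM of the 193 members was highest at 3 h (7277) and lowest at 0 h (4704). FAP103 and FAP24 made up 3713 of the 7277 at 3 h. Without them the sum was highest in early replete cells (3895), with 3801 at 12 h. It was nearly equal at 1.5 h (3075) and 0 h (3081), the lowest values. These sums were not rescaled to equal totals. Total FPKM was 886096 in early replete cells and 748097 at 12 h, so the order of the sums depends on the scale.

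**Figure D4:**
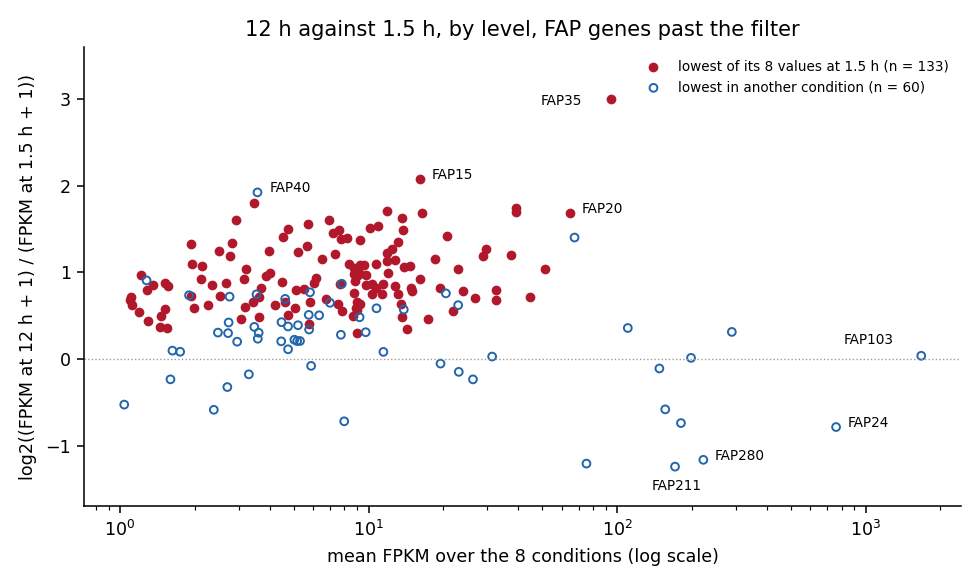
Ratio of 12 h to 1.5 h on the log2(FPKM + 1) scale (vertical axis) against mean FPKM over the 8 conditions (horizontal axis, log scale) for 193 FAP genes, filled where the lowest value was at 1.5 h (133) and open elsewhere (60). The 10 genes of at least 100 FPKM are all open, and FAP35 has the highest ratio at 3.00.

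Between 1.5 and 3 h most members moved back up towards their 0 h level. The median step was 0.35 over the members and 0.04 over all genes, with 181 of 193 members (54.6% of all genes) above 0. At equal total FPKM these medians were 0.22 and -0.10, and 46 members were below 0 in place of 12. By the bounds 77 members (39.9%) lay apart above their 1.5 h value against a background of 17.4%. FAP269, FAP270 and FAP35 rose in this step, 1.55% of the members against a background of 4.3% of all genes, and 0 fell (background 0.715%). FAP35 went from 15.3 to 35.2 FPKM. Against 0 h the median ratio at 3 h was -0.02 over the members and 0.11 over all genes, and both shifted at equal total FPKM, to -0.26 and -0.11. At the fold minimum 7 members were called higher (3.63%, background 10.4%) and 1 lower (0.518%, background 5.8%), while by the bounds alone 11 lay apart above 0 h (5.70%, background 27.6%) and 11 below (5.70%, background 15.8%), or 11.4% in either direction against 43.4%. The higher ones were FAP269, FAP224, FAP24 (ratio 1.47), FAP211, FAP233 (1.35 to 4.57 FPKM), FAP40 and FAP103, and the lower one was FAP291. The split was 5 higher and 3 lower with median-of-ratios factors or equal totals, where FAP40 and FAP103 lost their calls.

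From 3 to 4.5 h the median step was -0.06 and no member was called, with 0.348% of all genes called in either direction. On the bounds 3 members lay apart above (FAP40, FAP265 and FAP269) and 7 below, 1.55% and 3.63% against backgrounds of 3.75% and 3.87%. At 4.5 h against 0 h FAP269, FAP40, FAP224, FAP103 and FAP233 were higher (2.59%, background 10.2%) and 0 were lower (background 6.51%), while by the bounds alone 8 lay apart above (4.15%, background 26.6%) and 18 below (9.33%, background 16.4%), or 13.5% in either direction against 43%. The median of -0.09 stood against 0.10 over all genes. At equal total FPKM these medians were -0.28 and -0.09, and 160 members were below 0 in place of 119. The split of calls was 3 higher and 2 lower with median-of-ratios factors and 3 and 3 at equal totals.

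The second rise came between 4.5 and 12 h and, of the 4 steps between resupply times, had the largest median and the most members lying apart by the bounds. The median step was 0.49 over the members and -0.08 over all genes, and 178 of 193 members were above 0. By the bounds 114 members (59.1%) lay apart above their 4.5 h value, against a background of 10.9%, and 5 (2.59%) below, against 15.5%. At the fold minimum 9 rose (4.66%, background 1.74%) and 2 fell (1.04%, background 1.27%). FAP35 rose most, from 42.2 to 129 FPKM, and FAP212 from 59.5 to 149 FPKM. FAP15 went from 7.65 to 19.6 FPKM, FAP138 from 1.93 to 5.77 FPKM and FAP161, a protein of the doublet lumen, from 7.63 to 16.5 FPKM. FAP152, FAP265, FAP86 and FAP56 were the other members that rose. FAP24 fell from 1069 to 461 FPKM and FAP280 from 292 to 138 FPKM, and FAP211, FAP224 and FAP294 also lay apart below.

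At 12 h FAP levels stood above deficiency in most members. The median ratio against 0 h was 0.40, a level 32.2% higher on the (FPKM + 1) scale, against 0.06 over all genes, with 169 of 193 members above 0. On the bounds alone 93 members (48.2%) lay apart above 0 h against a background of 24%, and 4 (2.07%) below against 18.2%. At the fold minimum 8 rose (4.15%, background 7.25%) and 1 fell (0.518%, background 6.31%). FAP40, FAP269 and FAP35 led with ratios of 2.19, 1.94 and 1.86, followed by FAP138, FAP233, FAP161, FAP1 (8.08 to 18.1 FPKM) and FAP126 (29.6 to 61.2 FPKM). FAP126 lost its call with either rescaling.

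Measured directly from the dip to 12 h, a comparison added after the data were seen that does not use the 0 h value, the median ratio was 0.75 over the members and -0.03 over all genes. It was above 0 in 176 of 193 members. In this comparison 55 members rose (28.5%) and 3 fell (1.55%), where 11.1% of all genes were called in each direction. The pair joins the conditions where members were most often lowest and highest, so an excess over all genes was built in. Against 0 h, members were called less often than all genes, at 5.70% against 9.24% lower at 1.5 h and 4.15% against 7.25% higher at 12 h. By the bounds 150 members (77.7%) lay apart above their 1.5 h value, against a background of 27.5%, and 9 (4.66%) below, against 29%. FAP35 (ratio 3.00), FAP15 (2.08), FAP40 (1.92) and FAP138 (1.80) led, and FAP211, FAP294 and FAP280 fell. Of the members below the filter, FAP89, at 0.141 FPKM at 1.5 h and 1.70 FPKM at 12 h, would join them without it.

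The 12 h values were close to the replete cultures and slightly above them in many members. At 12 h 91 of 193 members (47.2%) exceeded both replete values and 17 (8.81%) lay below both, against 27.3% and 26.9% of all genes. At 1.5 h 158 members (81.9%) had been below both replete values, against 42.9% of all genes, and at 4.5 h 156 (80.8%) against 34.5%. These counts were made on the deposited scale only. At equal total FPKM the median ratio at 12 h against both replete cultures went from 0.10 to 0.19. Over all genes it went from -0.002 to 0.08. No member was called at 12 h against both replete cultures (0.611% of all genes were). Only FAP113 lay apart above both, at 177 FPKM against 99.7 and 104 (0.518%, background 1.41%). A member had to clear each culture, and the late replete bounds were the widest (median half-width 30.5%). Members apart from 1 culture alone were not counted.

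From 12 to 24 h most members came down a little. The median step was -0.19, against 0.02 over all genes, and 170 of 193 members (88.1%) were below 0. None was called (0.663% of all genes were), 11 (5.70%) lay apart below and 0 above, against backgrounds of 3.59% and 4.95%. At 24 h against 0 h 5 members rose (2.59%, background 8.49%), namely FAP269 (ratio 2.06), FAP35 (2.03), FAP40 (1.99), FAP25 (12.3 to 32.8 FPKM) and FAP1 (8.08 to 17.3 FPKM). FAP280 fell (0.518%, background 6.92%). By the bounds alone 45 members lay apart above 0 h (23.3%, background 25.5%) and 5 below (2.59%, background 17.8%), or 25.9% in either direction against 43.3%. FAP1 lost this call with either rescaling. Against both replete cultures no member was called at 24 h, where the background was 0.0785% higher and 0.279% lower (0.358% in all). None lay apart by the bounds alone either, against 0.314% higher and 0.463% lower (0.777% in all). The median of -0.08 left 151 members slightly below the replete mean.

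The early and late replete cultures differed for 3 members. FAP212 was at 171 FPKM in early and 78.3 FPKM in late cells and FAP170 at 30.3 and 14.2 FPKM, while FAP15 was at 18.9 and 42.2 FPKM. These 3 were 1.55% of the members, 1.04% lower and 0.518% higher in late cells, against backgrounds of 1.43%, 0.689% and 0.741%. By the bounds alone 10 lay apart lower (5.18%, background 4.33%) and 1 higher (0.518%, background 1.99%). The median ratio of late to early was -0.16 over the members and -0.03 over all genes. After rescaling to equal totals it was 0.06 over the members and 0.19 over all genes, and the calls of FAP212 and FAP170 were lost. FAP212 was also the 1 abundant member with its lowest value at 4.5 h, at 116 FPKM at 0 and 1.5 h, 82.2 at 3 h, 59.5 at 4.5 h, 149 at 12 h and 111 at 24 h.

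Grouped by where the protein sits, 74 of the 208 members were in a structural list and 69 of those passed the filter. The lists were drawn from general knowledge of the flagellum, and their counts are to be read against the all-gene shares of 26.3% lowest at 1.5 h, 5.79% highest at 12 h and 11.1% higher from 1.5 to 12 h. These conditions were picked from the course of the members as a whole, which favours the lists over all genes. Proteins of the doublet lumen followed the common course closely. Of 26 tested, 25 were lowest at 1.5 h and 18 highest at 12 h (26.3% and 5.79% of all genes), with a median of -0.45 at 1.5 h and 0.59 at 12 h against 0 h. From 1.5 to 12 h 16 of the 26 rose and 0 fell (median ratio above 1), where 11.1% of all genes were called in each direction. FAP20, which joins the doublet's inner junction, was at 94.7 and 77.5 FPKM in replete cells, 49.8 at 0 h, 27.1 at 1.5 h, 44.2 at 3 h, 49.9 at 4.5 h, 89.8 at 12 h and 84.4 at 24 h. The 1.5 h bounds of 22.9 to 31.3 FPKM lay below those of every other condition. FAP126 went from 29.6 FPKM at 0 h to 18.2 at 1.5 h and 61.2 at 12 h. FAP90 kept a narrower range, from 35 FPKM at 1.5 h to 58.3 FPKM at 12 h. FAP45 and FAP52, which bind inside the B-tubule and were named outside the rule, went from 13.5 to 8.54 to 19.1 FPKM and from 15.8 to 10.5 to 24.7 FPKM over 0, 1.5 and 12 h.

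Central apparatus members moved less. Of 20 tested, 16 were lowest at 1.5 h and 8 highest at 12 h, with medians of -0.30 and 0.38 against 0 h, and 3 rose from 1.5 to 12 h (FAP101, FAP47 and FAP7), a share near the background of 11.1%. FAP174, the most abundant of them, was at 41.4 FPKM at 0 h and 22.9 FPKM at 1.5 h and regained 37.4 FPKM at 12 h. FAP178 went from 10.8 to 5.71 to 12.2 FPKM and FAP7 from 8.07 to 5.67 to 13.2 FPKM over 0, 1.5 and 12 h. FAP46, FAP54 and FAP65, large central apparatus proteins, were below the filter with means of 0.808, 0.633 and 0.299 FPKM.

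The nexin-dynein regulatory complex links neighbouring doublets, and 6 of its 7 tested members were lowest at 1.5 h (median -0.56). FAP82 was at 8.75 FPKM at 0 h, 3.92 at 1.5 h and 13.1 at 12 h and FAP134 at 7.11, 3.54 and 11.0 FPKM, and both rose from 1.5 to 12 h. FAP155 went from 9.34 to 7.89 to 14.0 FPKM and FAP169 from 18.3 to 14.0 to 19.7 FPKM. FAP200 was the exception, between 17.7 and 21.7 FPKM in all 8 conditions, and its range of 0.28 log2 units was the narrowest of the 193 members. Subunits of a complex therefore did not share the same size of change.

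Among spoke-base members 4 of 5 were lowest at 1.5 h, with a median of -0.35. FAP61, FAP91 and FAP251, which form the calmodulin spoke complex, were at 1.67, 1.81 and 4.23 FPKM at 0 h, 0.920, 1.21 and 3.65 FPKM at 1.5 h and 3.03, 2.67 and 5.64 FPKM at 12 h. FAP253 went from 7.34 to 5.39 to 8.97 FPKM, while FAP207 stayed between 4.40 and 5.65 FPKM throughout. The ruler, tether and dynein regulator list had 7 of 8 tested members lowest at 1.5 h (median -0.56) and 1, FAP43, that rose from 1.5 to 12 h. FAP43, part of the tether of an inner dynein motor, was at 2.36, 0.843 and 3.38 FPKM at 0, 1.5 and 12 h. FAP73 was at 11.1, 6.91 and 14.8 FPKM, FAP184 at 9.97, 5.98 and 10.8 FPKM and FAP189 at 8.57, 6.90 and 10.2 FPKM. FAP22 and FAP259, subunits of the intraflagellar transport train, dipped from 11.8 to 6.38 and from 11.8 to 6.25 FPKM and reached 17.8 and 16.5 FPKM at 12 h, and both rose from 1.5 to 12 h. FAP256, a protein of the flagellar tip, went from 5.79 to 4.39 to 6.12 FPKM.

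Members in no structural list were more mixed. Of 124 tested, 72 were lowest at 1.5 h and 42 highest at 12 h, with medians of -0.27 and 0.37 against 0 h. From 1.5 to 12 h 30 rose and 3 fell, against a background of 11.1% in each direction. This group held 9 of the 11 members that fell at 1.5 h, both that rose, and all 10 members of at least 100 FPKM. FAP272 was among its wide movers, at 8.83 FPKM at 0 h, 4.04 at 1.5 h and 15.5 at 12 h. FAP295, named outside the rule, stayed between 20.7 and 25.8 FPKM in all 8 conditions.

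**Figure D5:**
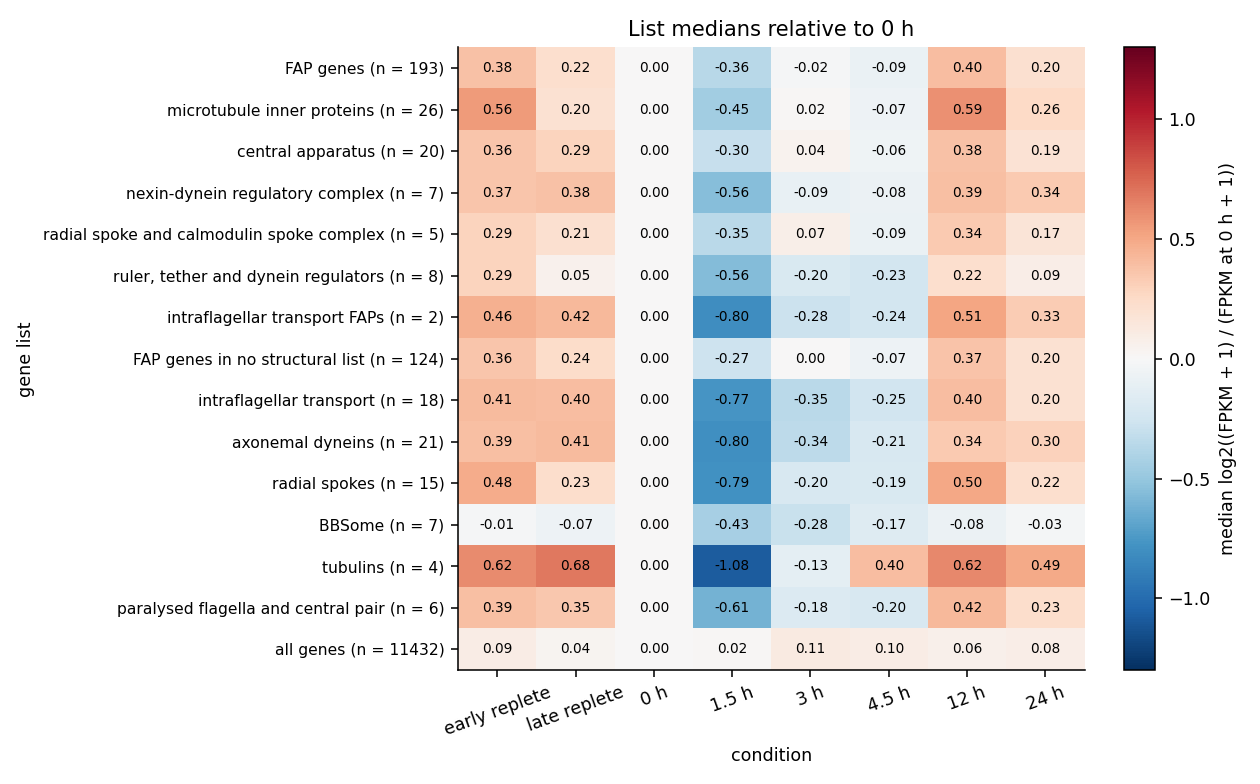
Median ratio to 0 h on the log2(FPKM + 1) scale (colour and printed value) for lists of FAP genes and of other flagellar genes (rows, n is the number of genes) in the 8 conditions (columns). At 1.5 h the medians are -0.45 for proteins of the doublet lumen, -0.80 for axonemal dyneins and 0.02 for all genes.

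In most other lists of flagellar genes, drawn up by symbol, nearly all genes were lowest at 1.5 h, against 26.3% of all genes. Fewer genes were lowest there among those named BBS and the flagellar membrane glycoproteins. The medians of both these lists were still lowest at 1.5 h, at -0.43 and -0.39 against 0 h. At 12 h they were -0.08 and 2.92. The dynein list includes DHC1b, the motor of intraflagellar transport, and the tubulin list includes TUG1, a gamma tubulin. All 18 tested genes of intraflagellar transport were lowest at 1.5 h, as were 20 of 21 dyneins, 14 of 15 radial spoke genes, the 4 tubulins and the 6 genes of the paralysed flagella and central pair list. Their medians against 0 h at that time were -0.77, -0.80, -0.79, -1.08 and -0.61. Calls at 1.5 h, where the background was 9.24% lower, were 3 lower (IFT25 and IFT27 among them), 6 lower (ODA2 and ODA4 among them), 2 lower (RSP7 and RSP9), 2 lower (TUA1 and TUB1) and 1 lower (PF16), with 0 higher in each of these lists. From 1.5 to 12 h 12 of 18, 16 of 21, 12 of 15, 4 of 4 and 3 of 6 rose, against 11.1% of all genes. Among genes named BBS, for a membrane traffic complex of the flagellum, 3 of 7 were lowest at 1.5 h. Of these 7 genes, 1 (BBS3B) fell at 1.5 h against 0 h and 1 (BBS5) rose from 1.5 to 12 h. BBS3B was higher at 0 h than in both replete cultures and was still called lower than 0 h at 12 and 24 h. Both genes of the ribbon list were lowest at 1.5 h (median -0.56). Of the 2 flagellar membrane glycoprotein genes 1 was lowest at 1.5 h, and both rose at 4.5, 12 and 24 h against 0 h, and in deficiency FMG1-A was higher and FMG1-B lower than in both replete cultures.

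The members lay on 16 chromosomes, with 2 on scaffolds, and no member's span overlapped that of another gene. The table names no genome build, but its spans equal those of assembly Chlamydomonas_reinhardtii_v5.5 for all 176 members that the reference table holds, so positions are given from 1 in that frame. FAP20 (Cre07.g351650) spans 5573862 to 5576396 on chromosome 7, FAP35 (Cre16.g657650) 2091256 to 2092942 and FAP269 (Cre16.g674300) 6326403 to 6329994 on chromosome 16, FAP280 (Cre02.g108450) 5523280 to 5525477 and FAP24 (Cre02.g081050) 1084106 to 1089242 on chromosome 2, and FAP291 (Cre08.g367550) 1950529 to 1952701 on chromosome 8. The 1 pair of members with no gene between them was FAP50, of the nexin-dynein regulatory complex, and FAP197, 490 bases apart on chromosome 14. FAP50 was at 2.80, 1.58 and 3.90 FPKM and FAP197 at 4.09, 1.89 and 6.65 FPKM at 0, 1.5 and 12 h. FAP211 and FAP212 lie close on chromosome 2, from 591647 to 598148 and from 608124 to 612186, and had unlike courses, FAP211 high and FAP212 low at 3 and 4.5 h.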

How the data were processed

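The submitters' processing notes name TopHat2 and Cuffdiff. The deposited table gives FPKM per gene and condition with lower and upper bounds and a status, per the file headers. No source used here gives a genome build, tool versions, what level the bounds mark or the way replicates were merged. Each of the 8 conditions was matched to its columns by name, leaving 0 unused. FPKM values were compared as log2((a + 1)/(b + 1)) with Python 3.11.15 and pandas 2.3.3. A gene was tested where both statuses were OK and its mean was at least 1 FPKM. It was called where the ratio was at least 1 in size and the bounds did not overlap. Against both replete cultures the call had to hold for each, and the ratio is the mean of both. FAP17, below the filter, carried the 1 failed status among members (12 h). The call rule was run on simulated data, with noise drawn from the same deposited bounds that the rule uses. Changes were planted only in genes of at least 10 FPKM at 0 h, a level that many members do not reach. The run therefore cannot show how the rule behaves for lower genes or between replicates. Sequencing depth is unknown, since the FPKM files give no counts.

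The members, lists and tests were chosen with earlier results of these data known. Named members were up to 8 called per direction in each comparison with 0 h, and for 0 h against replete (up to 4 in the others), the 6 most abundant, the 8 with the widest range, and in each structural list the 3 most abundant and every member called against 0 h or a replete culture. FAP45, FAP50, FAP52, FAP56, FAP79, FAP86, FAP89, FAP113, FAP149, FAP152, FAP196, FAP197, FAP265, FAP290, FAP294, FAP295 and further list members given with values were named outside this rule after their values were seen.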

Additional observations from a re-analysis of the deposited data

How the results depend on the processing

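No paired analysis was possible because the table holds 1 value per condition, and no replicate could be left out for the same reason. A rescaling moves every gene of a condition alike, so it says little on the gap between members and all genes. As deposited, with median-of-ratios factors and at equal totals, members lowest at 1.5 h numbered 133, 129 and 115, and members highest at 12 h 79, 84 and 121. The median of late against early replete reversed from -0.16 to 0.0598 at equal totals, where that of all genes moved from -0.03 to 0.19. The other member medians kept their sign, but several moved at equal totals. Against 0 h the median went from -0.36 to -0.47 at 1.5 h and from -0.02 to -0.26 at 3 h. It went from -0.09 to -0.28 at 4.5 h and from 0.20 to 0.08 at 24 h. For 0 h against replete it went from -0.32 to -0.19. For the steps from 1.5 to 3 h and 4.5 to 12 h it went from 0.35 to 0.22 and 0.49 to 0.64.

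Counts of calls depend on the rule. In the order 0 h against replete, late against early, then the 5 resupply times in turn against 0 h, 12 h against 1.5 h, and all successive steps together, the members called were 5, 3, 13, 8, 5, 9, 6, 58 and 14. At a log2 ratio of at least 2 they were 2, 0, 0, 0, 1, 1, 2, 2 and 0. With no fold minimum, an alternative added after the data were seen, they were 18, 11, 85, 22, 26, 97, 50, 159 and 218, and 1 at 12 h against both replete cultures. A pseudocount of 5 left 3, 1, 4, 5, 3, 3 and 4 in the first 7 comparisons, 20 at 12 h against 1.5 h and 5 over the steps. A pseudocount of 0.1 gave 9 for 0 h against replete, 26 at 1.5 h, 14 at 12 h and 33 over the steps. A mean of at least 5 FPKM left 3 for 0 h against replete and 3 at 4.5 h. Equal totals left 1 for late against early and gave 20 at 1.5 h and 25 over the steps. Every other count was within 1.5 times the main one, and 24 h against both replete cultures gave 0 under each alternative run. Of 47 calls of named members, 41 were lost at a log2 ratio of at least 2, 24 with a pseudocount of 5, 8 at equal totals and 6 with median-of-ratios factors. With 1 value per condition and bounds of unknown level, changes under the fold minimum rest on their number across members, and members are not replicates.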
